A study of Homo sapiens with 8 samples.

Results

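The genes for the proteins of the mitochondrial ribosome were followed across 8 expression arrays of 2 human prostate cancer cell lines, LNCaP, which was established from a lymph node metastasis, and 22Rv1, which was established from a xenografted prostate carcinoma. A gene was taken as a member when a probe set carried its symbol alone and the symbol began with MRPL (large subunit) or MRPS (small subunit) and a digit, pseudogenes left out. This gave 75 genes on 140 probe sets, 48 of the large and 27 of the small subunit, out of 19775 genes on the array. Where a gene had several probe sets, the one with the highest mean over the 8 arrays stood for it. Each line had 1 array for each of 4 treatments. In the first, cells that had been in 10 mM caffeine for 4 h spent another 4 h in 2 µg/ml actinomycin D with caffeine. In the second, the same caffeine step was followed by 4 h in 2 µg/ml actinomycin D alone. The third was 4 h of caffeine, and the last was no drug. Every treated plate had therefore been in caffeine, and the plates of a line came from a single seeding of the same cells. Caffeine was used to block nonsense-mediated decay, which destroys mRNAs with premature stop codons, and actinomycin D to stop transcription.

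The mitochondrial ribosome translates the few mRNAs made from mitochondrial DNA, which encode core subunits of the respiratory chain and the ATP synthase. Its ribosomal RNAs come from mitochondrial DNA, but all of its proteins are encoded in the nucleus, translated in the cytosol and imported. Some of these proteins have counterparts in the bacterial ribosome and others are particular to mitochondria.

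Signals were log2 values, so a difference of 1 is a doubling. All 8 arrays had been given the same distribution (median 2.75), so each value ranks a transcript against the rest of its own array, and a loss common to all mRNAs leaves no trace in it. Each array measured many cells, so less RNA per cell and fewer cells with that RNA cannot be told apart. All 75 genes were at 4 or more on all 8 arrays, with single signals between 6.35 and 13.17, and all 75 were among the 21453 probe sets that limma tested, which required an average signal of 4 or more. Of 10 prostate epithelial markers 8 had a probe set, and all 8 were at 4 or more on every array. Of 10 markers of blood, endothelial and stromal cells 8 had a probe set, and PTPRC, CD3E, PECAM1, VWF and COL3A1 were under 3 on all arrays. The stromal genes COL1A1 (5.29 to 8.50 in LNCaP, 5.86 to 8.65 in 22Rv1) and ACTA2 (6.91 to 7.69 in LNCaP, 4.15 to 5.93 in 22Rv1) were at 4 or more on all arrays. DCN was at 4 or more on all 22Rv1 arrays but not on all LNCaP arrays (2.27 to 4.19 in LNCaP, 5.56 to 7.06 in 22Rv1). The 18S rRNA probe sets stood at a mean of 11.71 on the LNCaP array of actinomycin D with caffeine, against 4.09 to 6.25 on the other LNCaP arrays and 5.09 to 7.08 on the 22Rv1 arrays.

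Promoters were examined because genes of one complex may share short sequence motifs at their starts. Of the 75 genes 67 were found in the RefSeq promoter table (GRCh38.p14), which holds 250 bases before to 50 bases after the start of each gene. The motif AAGATGGC, which the factor YY1 binds, was present on either strand in 19 of the 67 promoters (28.4%), against 3.03% of all 27305 promoters, 5.87% of those of the tested genes, 9.62% of those of cytosolic ribosomal protein genes and 16.7% of those of respiratory chain genes. Of its 20 matches in the 67 promoters 14 lay after the start, all on the gene's own strand and with the first base 7 to 36 bases from the start, and over all promoters 444 of 865 matches lay after the start. The motif CCGGAAGT of ETS factors such as GABPA was in 10 of the 67 promoters (14.9%), against 4.44% of all promoters, 9.45% of those of the tested genes, 21.2% of those of cytosolic ribosomal protein genes and 13.3% of those of respiratory chain genes. Neither motif is contained in the other, and 5 promoters held both, those of MRPL20, MRPL38, MRPL47, MRPL51 and MRPL52. The palindromic NRF1 motif, searched like the others on both strands, was found once, in MRPL17 (1.49%, against 1.36% of all promoters, 2.49% of those of the tested genes and 6.67% of those of respiratory chain genes), and TATAAA in 2 (2.99%, against 12% of all and 5.08% of those of the tested genes). The matches are descriptions of the letters and not of binding.

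The following 130 bases run from 100 before to 30 after the start, 5′ to 3′ on the strand of the gene, with each motif match in capitals. MRPL46, MRPL20, MRPL47 and MRPL17 are shown because their signals were higher in LNCaP and they hold the YY1, ETS or NRF1 motif. MRPS10 is shown because its signal was lower in LNCaP although the YY1 motif stands at almost the same place as in MRPL46, and MRPS30 because it had the lowest mean decay of the family.
MRPL46 (chr15:88467359-88467488, minus strand, YY1 motif at 9): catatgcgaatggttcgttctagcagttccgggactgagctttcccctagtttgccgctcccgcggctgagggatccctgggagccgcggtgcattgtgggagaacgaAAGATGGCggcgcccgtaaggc
MRPL20 (chr1:1407264-1407393, minus strand, ETS motif at -44, YY1 motif at 16): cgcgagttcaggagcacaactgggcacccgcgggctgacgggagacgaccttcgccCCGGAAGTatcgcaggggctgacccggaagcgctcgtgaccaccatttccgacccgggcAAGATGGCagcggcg
MRPL47 (chr3:179604609-179604738, minus strand, YY1 motif reversed at -92, ETS motif at -39): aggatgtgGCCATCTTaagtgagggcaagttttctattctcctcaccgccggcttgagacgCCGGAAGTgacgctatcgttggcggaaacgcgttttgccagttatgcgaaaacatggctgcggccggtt
MRPL17 (chr11:6683311-6683440, minus strand, NRF1 motif at -81): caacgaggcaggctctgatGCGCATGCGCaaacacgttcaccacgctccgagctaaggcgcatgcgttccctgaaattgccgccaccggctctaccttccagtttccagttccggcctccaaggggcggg
MRPS10 (chr6:42217832-42217961, minus strand, YY1 motif at 10): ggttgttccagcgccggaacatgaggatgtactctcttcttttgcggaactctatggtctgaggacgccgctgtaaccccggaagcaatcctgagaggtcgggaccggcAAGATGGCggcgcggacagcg
MRPS30 (chr5:44808847-44808976, plus strand, YY1 motif at 14): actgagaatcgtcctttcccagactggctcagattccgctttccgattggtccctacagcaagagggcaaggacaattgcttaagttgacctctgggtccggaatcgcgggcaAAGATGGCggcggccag

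The clearest difference of the family was between the cell lines. Over the 4 matched treatments 44 of the 75 genes had higher signals in LNCaP than in 22Rv1 (limma, adjusted p under 0.05, with treatment as a block), 3 had lower signals and 28 were not called. Among all tested probe sets 27.4% were called higher and 26.3% lower in LNCaP. The median difference over the 75 genes was 0.71 on the log2 scale (quartiles 0.12 and 1.11), against 0.02 over all tested probe sets. Of the 75 genes 23 were called higher by at least 1, against 17% of the tested probe sets. In 40 genes every LNCaP array was above every 22Rv1 array, and in 4 every LNCaP array was below, against 20.5% and 23.6% of the tested probe sets. Among the 7527 tested probe sets in the signal range of the family, 29.1% were called higher and 26.4% lower, with a median of 0.05.

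The difference was present under each treatment. Genes with a higher signal in LNCaP numbered 61 in actinomycin D with caffeine, 59 in actinomycin D alone, 62 in caffeine and 59 in untreated cells, against 49.7%, 48.4%, 51.1% and 50.2% of all tested probe sets. The median differences were 0.76, 0.68, 0.71 and 0.64 in the same order. The median signal of the 75 genes was 10.42, 10.23, 10.33 and 10.37 on the LNCaP arrays of actinomycin D with caffeine, actinomycin D alone, caffeine and no drug, and 9.56, 9.68, 9.46 and 9.80 on the 22Rv1 arrays in that order. The 4 LNCaP medians were all above the 4 medians of 22Rv1. Since each line is represented by plates of 1 culture, the p-values measure the spread between these arrays. The difference between the 3′ and 5′ probe sets of actin, a sign of RNA quality, was 1.20 to 2.14 on the LNCaP arrays and 0.91 to 1.43 on the 22Rv1 arrays, and that of GAPDH 0.48 to 0.65 on the LNCaP arrays and 0.48 to 0.59 on the 22Rv1 arrays. The part of the actin difference in the result was not tested.

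**Figure D1:**
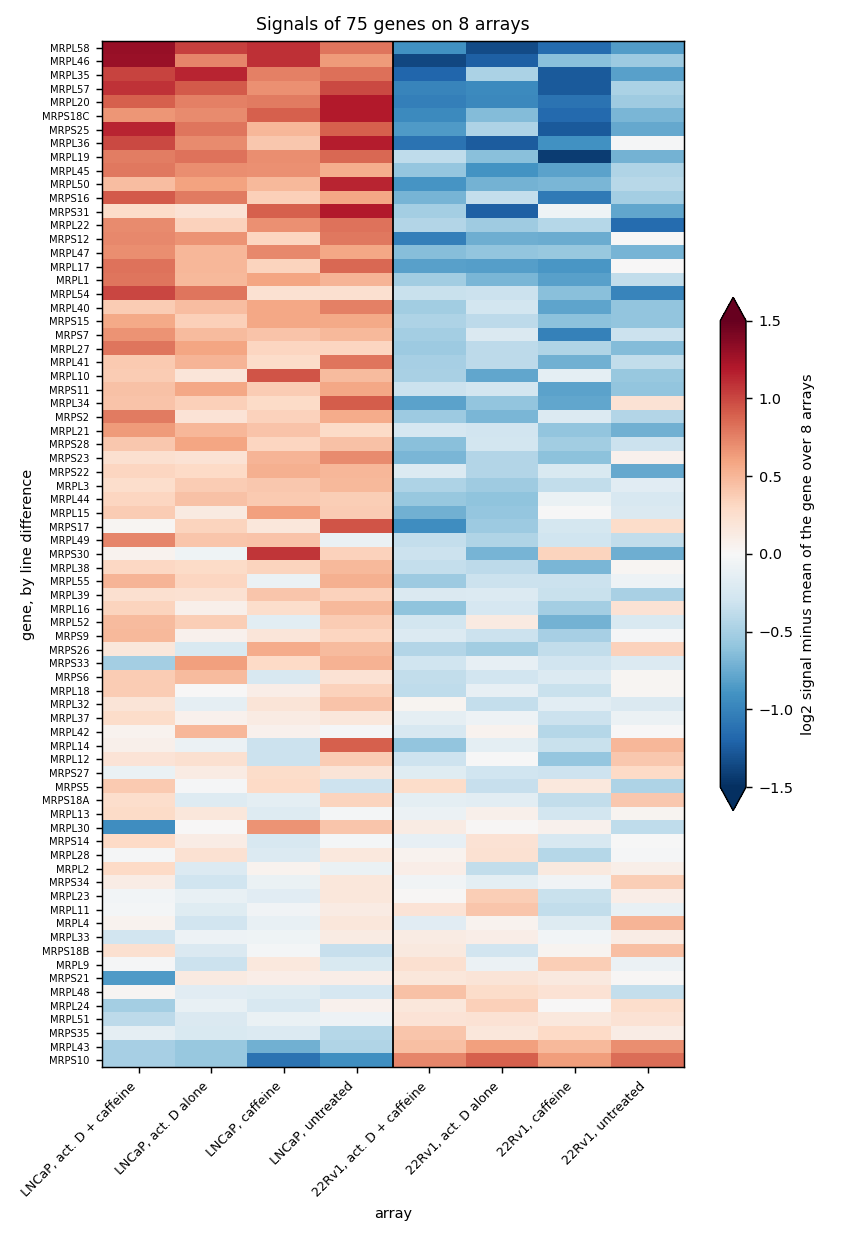
Signals of the 75 genes (rows, in the order of the line difference) on the 8 arrays (columns, LNCaP left of the black line and 22Rv1 right of it), each as log2 signal minus the mean of the gene over the 8 arrays. Red cells are above and blue cells below that mean. The upper rows are red in LNCaP and blue in 22Rv1, and the bottom rows (MRPS10 and MRPL43) are the reverse.

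Both subunits showed the difference. In the large subunit 29 of 48 genes were called higher in LNCaP and 1 lower (median 0.72), and in the small subunit 15 of 27 were called higher and 2 lower (median 0.71). Of the 44 genes with a bacterial counterpart 25 were called higher and 1 lower (median 0.75). Of the 28 particular to mitochondria 18 were called higher and 2 lower (median 0.72). The lists left out 3 genes, MRPL55, which was called higher, and MRPS18A and MRPS18B, which are counterparts of bacterial S18 and were not called.

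In the large subunit the highest difference belonged to MRPL58, a peptidyl-tRNA hydrolase that frees stalled mitochondrial ribosomes and is also built into the subunit. Its signals were 10.57, 10.29, 10.36 and 10.07 in LNCaP (actinomycin D with caffeine, actinomycin D alone, caffeine, untreated, the order used for all genes below) and 8.35, 7.92, 8.11 and 8.43 in 22Rv1. The lowest LNCaP array was well above the highest 22Rv1 array, with a difference of 2.12 ± 0.17 (SE, limma, adjusted p = 0.000294). MRPL46, a protein particular to mitochondria, had signals of 9.43, 8.86, 9.23 and 8.77 in LNCaP and 6.76, 6.90, 7.50 and 7.59 in 22Rv1. No overlap was seen, and the difference was 1.89 ± 0.25 (adjusted p = 0.00176). MRPL57, another subunit particular to mitochondria, reached 13.17, 13.01, 12.78 and 13.08 in LNCaP and 11.10, 11.14, 10.83 and 11.61 in 22Rv1. All 4 LNCaP signals were higher by more than a unit, and the difference was 1.84 ± 0.16 (adjusted p = 0.000358). MRPL20, whose bacterial counterpart is needed for the assembly of the large subunit, was at 11.72, 11.58, 11.61 and 12.02 in LNCaP and 9.80, 9.86, 9.72 and 10.29 in 22Rv1. Here too the groups lay apart, by 1.81 ± 0.13 (adjusted p = 0.000214).

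MRPL35, which has a bacterial counterpart, was higher in LNCaP by 1.87 ± 0.17 (adjusted p = 0.000398) on its brightest probe set, with signals of 9.09, 9.21, 8.83 and 8.90 in LNCaP and 6.88, 7.60, 6.81 and 7.26 in 22Rv1. That probe set, 218890_x_at, has a name that marks probes that can also bind unrelated transcripts. The probe set 225255_at of the same gene ran the other way, with 4.52, 4.26, 4.58 and 4.39 in LNCaP and 6.53, 6.39, 6.29 and 6.35 in 22Rv1 (-1.95, adjusted p = 0.000209). A further one, 222775_s_at, differed by 0.19 (adjusted p = 0.478). The direction of MRPL35 therefore depended on the probe set.

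Other functional sites of the large subunit were represented. MRPL45, which attaches the ribosome to the inner membrane where its products are inserted, was higher in LNCaP by 1.36 ± 0.16 (adjusted p = 0.00105). MRPL10, the base of the flexible stalk that recruits translation factors, was higher by 0.99 ± 0.13 (adjusted p = 0.0018). MRPL12, the stalk protein that MRPL10 holds and that also binds the mitochondrial RNA polymerase, differed by 0.25 ± 0.15 (adjusted p = 0.206), with overlapping groups. MRPL3, which has a bacterial counterpart close to the catalytic centre, was higher by 0.76 ± 0.14 (adjusted p = 0.00498), and MRPL2, whose counterpart is also near that centre, differed by 0.02 ± 0.15 (adjusted p = 0.923). No member of the large subunit other than MRPL43 was called lower.

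In the small subunit MRPS18C, MRPS25, MRPS16, MRPS31 and MRPS12 had the highest differences. MRPS18C is 1 of 3 mammalian counterparts of the bacterial protein S18, and it had signals of 10.33, 10.38, 10.57 and 10.86 in LNCaP and 8.71, 9.02, 8.50 and 8.98 in 22Rv1. Both groups lay apart by 1.73 ± 0.17 (adjusted p = 0.00058). The other two, MRPS18A and MRPS18B, differed by 0.13 ± 0.15 (adjusted p = 0.498) and -0.18 ± 0.20 (adjusted p = 0.47), with overlapping groups. MRPS18A and MRPS30 carry names of the small subunit but structures place them in the large one. MRPS12, the counterpart of a bacterial protein at the decoding site, had 10.70, 10.65, 10.30 and 10.77 in LNCaP and 8.95, 9.25, 9.24 and 9.97 in 22Rv1. Even the lowest LNCaP array was above all 22Rv1 arrays, and the difference was 1.26 ± 0.20 (adjusted p = 0.00302).

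The 3 genes with lower signals in LNCaP were MRPS10, MRPL43 and MRPS35. MRPS10, the counterpart of bacterial S10, had 7.69, 7.62, 7.08 and 7.27 in LNCaP and 8.92, 9.08, 8.81 and 9.02 in 22Rv1. All LNCaP arrays were below all 22Rv1 arrays, by -1.54 ± 0.16 (adjusted p = 0.000645). The other tested probe sets of MRPS10 differed by -0.47 (adjusted p = 0.0989) and -0.42 (adjusted p = 0.099). MRPL43, particular to mitochondria, had 9.01, 8.94, 8.79 and 9.06 in LNCaP and 9.97, 10.13, 10.0 and 10.21 in 22Rv1, a difference of -1.13 ± 0.14 (adjusted p = 0.00117) without overlap. A second probe set of MRPL43, 230027_s_at, gave -1.26 (adjusted p = 0.00182), and 230026_at gave 0.44 (adjusted p = 0.104). MRPS35, a small subunit protein particular to mitochondria, was at 10.83, 10.74, 10.76 and 10.54 in LNCaP and 11.38, 11.13, 11.26 and 11.08 in 22Rv1. This gap was narrow, at -0.49 ± 0.13 (adjusted p = 0.0226), and the adjusted p was above 0.05 when any 1 treatment was left out.

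The next lowest were MRPL51, with a difference of -0.40 ± 0.14 (adjusted p = 0.0569) and no overlap between the lines, and MRPL24, with -0.39 ± 0.15 (adjusted p = 0.072). The smallest differences called higher were those of MRPS9, the counterpart of bacterial S9, at 0.52 ± 0.15 (adjusted p = 0.0259), and MRPL52, particular to mitochondria, at 0.53 ± 0.15 (adjusted p = 0.0277). Both lost the call when some treatments were left out. Of the 28 genes not called, 17 had a difference above 0, and 4 had an unadjusted p under 0.05.

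**Figure D2:**
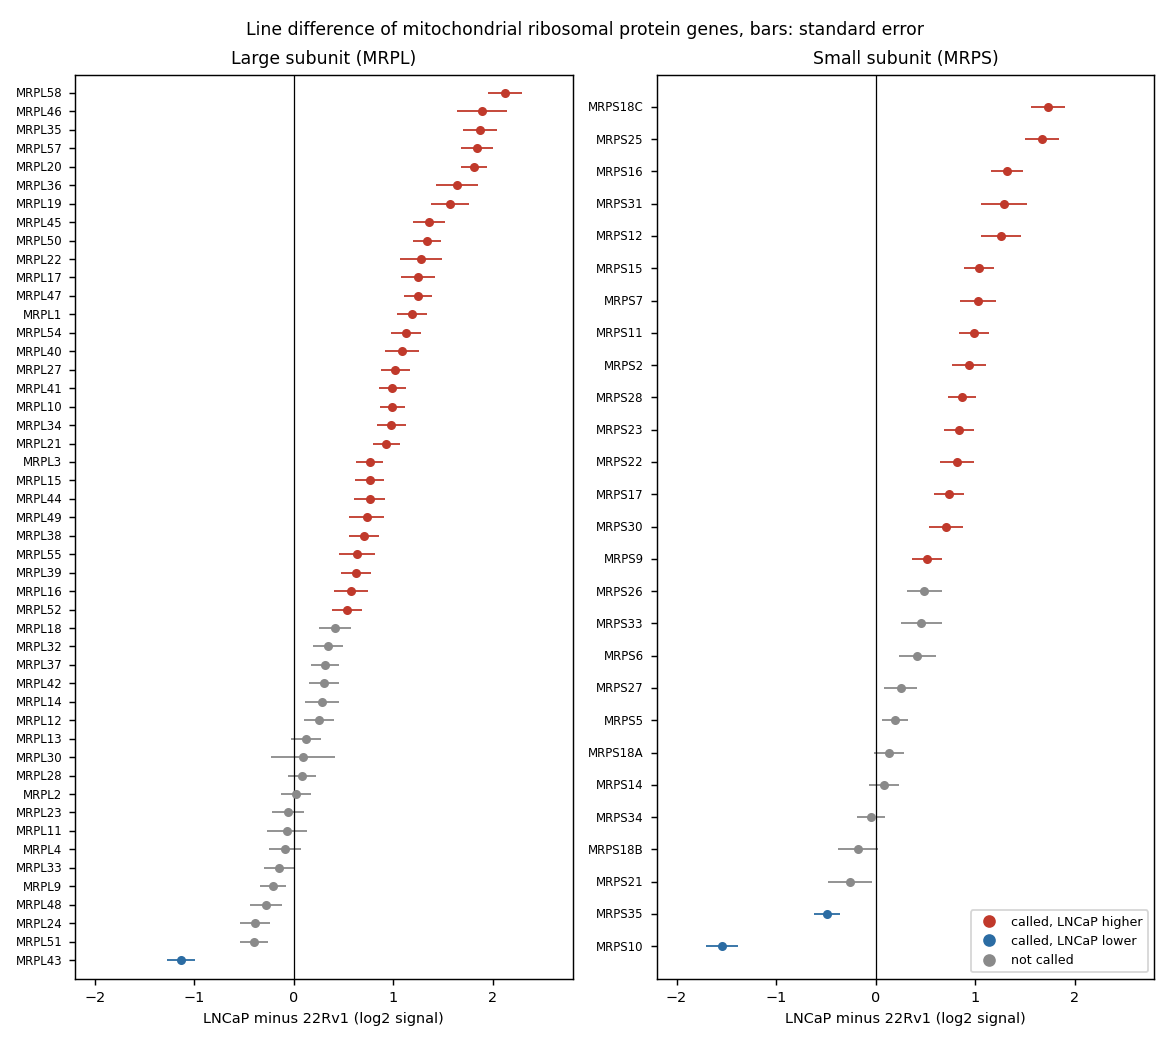
Difference LNCaP minus 22Rv1 in log2 signal for the 48 large subunit genes (left) and the 27 small subunit genes (right). Points are limma estimates over 4 matched treatments and bars are standard errors. Red points were called higher in LNCaP, blue points lower, and grey points were not called; MRPL58 is at 2.12 and MRPS10 at -1.54.

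Several genes were measured by more than 1 probe set. Of the 75 genes 37 had others, 65 in all, of which 40 were tested. The 15 genes called higher that had another tested probe set had 22 of them, and of these 17 were above 0, 13 were called higher and 4 were called lower. The lower ones belonged to MRPL19 (238448_at, -0.79), MRPL35 (225255_at, -1.95), MRPS25 (224873_s_at, -1.58) and MRPS30 (222275_at, -1.67). Over all 115 tested probe sets of the family 58 were called higher and 11 lower, with a median of 0.57. Calls in the higher direction thus outnumbered the lower ones, with a smaller median than that of the 75 genes. The 115 include the 75 probe sets that stand for the genes, so they are not a separate check. Among the genes not called, 223742_at of MRPL4 was called higher (1.64). Called lower were 211594_s_at of MRPL9 (-0.54), 242289_at of MRPL42 (-1.35) and 203801_at of MRPS14 (-0.69).

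The members lie on many chromosomes. On each of the 8 chromosomes with at least 4 members, the median difference of the members was above that of the other tested genes of the same chromosome. On chromosome 17 the 8 members had a median of 1.0, against 0.15 for 645 other genes, and 7 were called higher. On chromosome 3 all 4 members were called higher (median 1.03, against 0.08). On chromosome 6, where MRPS10 lies, the 6 members had a median of 0.08, against -0.23, and none was called higher. The 3 members on chromosome 12 had a median of -0.40, where the 583 other genes had -0.73, and MRPS35 was called lower there. On chromosomes 10 and 16, with 2 members each, the median of the members was below that of the other genes (0.10 against 0.27, and 0.02 against 0.06).

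Genes with and without the promoter motifs had similar medians in the line difference, which were not tested against each other. The median difference was 0.71 for the 19 genes with the YY1 motif and 0.62 for those without it. For the ETS motif the medians were 0.73 with it and 0.63 without it. YY1 itself had a higher signal in LNCaP (0.69 ± 0.14, adjusted p = 0.00791), GABPA differed by 0.77 ± 0.39 (adjusted p = 0.146) and NRF1 was lower in LNCaP (-0.95 ± 0.31, adjusted p = 0.0442). NRF1 had 5.22, 3.10, 5.87 and 5.51 in LNCaP and 5.37, 5.16, 6.53 and 6.44 in 22Rv1. Its gap was widest in actinomycin D alone, where the LNCaP signal was under 4.

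Other genes of mitochondrial translation were read from lists. Over all 10842 genes tested 28.5% were called higher in LNCaP and 26.8% lower. Mitochondrial ribosome subunits with other names were all higher in LNCaP (4 of 4 tested, median 0.93), among them DAP3, which binds GTP in the small subunit (1.59 ± 0.17, adjusted p = 0.000704), and CHCHD1 (1.27 ± 0.14, adjusted p = 0.000788). Of 15 translation factors 9 (60.0%) were called higher and 0 lower (median 0.67). They included MTRF1, a release factor (2.68 ± 0.19, adjusted p = 0.000174), TACO1, which activates translation of a cytochrome oxidase mRNA (1.41 ± 0.19, adjusted p = 0.00189), and OXA1L, which inserts the products into the inner membrane (1.30 ± 0.15, adjusted p = 0.00106). TUFM, the elongation factor that delivers tRNAs, differed by -0.05 ± 0.19 (adjusted p = 0.834). Of 21 genes of ribosome assembly and rRNA modification 8 (38.1%) were called higher and 0 lower (median 0.37), with MRM3, an rRNA methyltransferase, at 1.96 ± 0.26 (adjusted p = 0.00172).

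Of 15 mitochondrial aminoacyl-tRNA synthetases, which charge the tRNAs, 6 (40.0%) were called higher and 2 (13.3%) lower (median 0.51). WARS2 was higher by 2.90 ± 0.18 (adjusted p = 0.000117) and RARS2 lower (-2.17 ± 0.14, adjusted p = 0.000133). Of 10 genes of mitochondrial DNA maintenance and transcription 5 were called higher and 0 lower (median 0.58), with TFAM, which packages mitochondrial DNA, at 2.12 ± 0.26 (adjusted p = 0.00127). The 8 tested regulators had 2 called higher and 1 lower (median -0.03). Those called higher were YY1, given above, and MYC, a growth regulator (1.94 ± 0.53, adjusted p = 0.0234), and the one called lower was NRF1. MYC had 9.31, 7.92, 12.62 and 12.66 in LNCaP and 5.48, 5.61, 11.81 and 11.83 in 22Rv1. Its gap between the lines was wider on the arrays with actinomycin D than in caffeine or untreated cells.

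Genes of the cytosolic ribosome and of the respiratory chain gave smaller medians. Of 57 tested cytosolic ribosomal protein genes 6 were called higher in LNCaP and 3 lower (median 0.12). The largest differences among them were those of RPL39L (-5.1 ± 0.26, limma, adjusted p = 5.65e-05) and RPS4Y1 (-3.28 ± 0.16, adjusted p = 5e-05). Of 67 tested nuclear genes of the respiratory chain and ATP synthase 24 were called higher and 8 lower (median 0.29). COX7B2 (2.66 ± 0.29, adjusted p = 0.000779) and NDUFA8 (1.33 ± 0.15, adjusted p = 0.00102) had the largest differences of that list. The share called higher was 58.7% for the mitochondrial ribosomal proteins, 10.5% for the cytosolic ones and 35.8% for the respiratory chain, against 28.5% of all 10842 genes tested. These shares were not tested against each other. Most of the cytosolic genes lay in a narrow range. Quartiles of their line difference were -0.02 and 0.22, against -0.63 and 0.69 over all genes tested. Their caffeine minus untreated quartiles in LNCaP were -0.05 and 0.05, against -0.31 and 0.31 over all tested probe sets. In the treatment comparisons below, 0 of the 57 had an unadjusted p under 0.05 (limma). The lists were not matched for signal, and the part of this range in the small median was not tested.

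**Figure D3:**
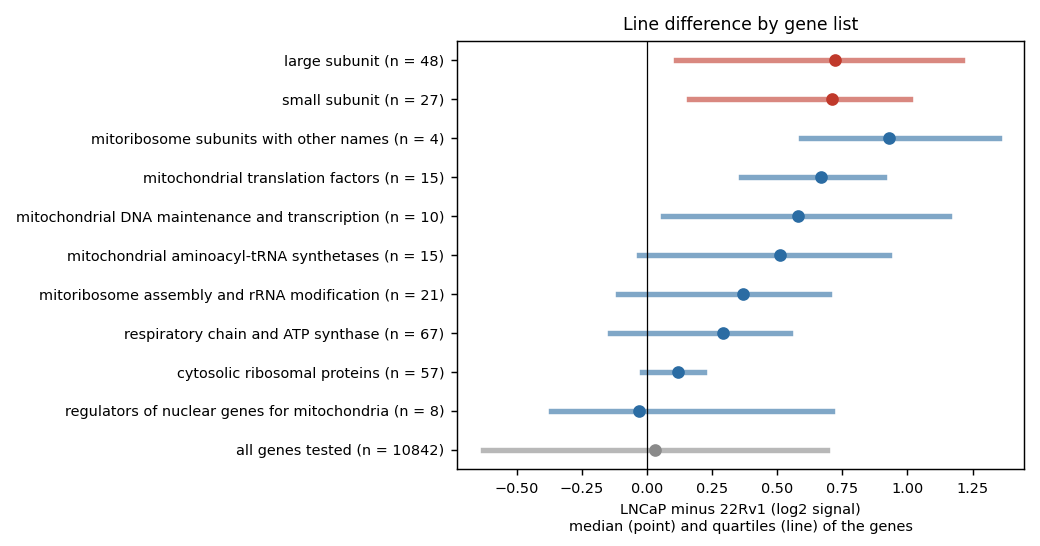
Line difference (LNCaP minus 22Rv1, log2 signal) by gene list, with points at the median and lines between the quartiles of the tested genes, whose number is given beside each list. Both mitochondrial ribosome subunits (red) have medians near 0.7, while the median of cytosolic ribosomal proteins is 0.12 and that of all genes (grey) 0.03. The quartiles of the cytosolic list lie close together, at -0.02 and 0.22.

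The treatments were compared within each line. Accumulation was caffeine minus untreated, and degradation compared actinomycin D with caffeine against the drug alone. Decay set actinomycin D alone against caffeine, in which caffeine was also withdrawn, and the loss with caffeine kept set actinomycin D with caffeine against caffeine. The comparisons share arrays, so the signal of the caffeine array enters accumulation with one sign and decay and the loss with the other. Over both lines limma called none of the 75 genes in any of these comparisons. The standard errors of the members were 0.19 to 0.46, with a median of 0.22.

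After caffeine most members had differences below 0. Over the 75 genes accumulation gave medians of -0.17 (LNCaP) and -0.25 (22Rv1), against -0.02 (LNCaP) and -0.03 (22Rv1) over all tested probe sets, and scaling on poly-A control RNAs turned the median over both lines to 0.03, where that of all tested probe sets was 0.20. In both lines 44 genes were below 0, against 36.6% of the tested probe sets, and 16 were above 0 in both, against 31.1%. Limma called 0 of 75, against 0.0466% of the tested probe sets, and the lowest adjusted p was 0.131, with 10 genes at an unadjusted p under 0.05 (8 lower and 2 higher), against 17.7% of the tested probe sets. The differences of the 75 genes in LNCaP and 22Rv1, which come from separate arrays, had a correlation of r = 0.63 over the genes, against 0.53 over all tested probe sets.

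The lowest accumulation was that of MRPL14, a core protein of the large subunit whose surface is held by an assembly factor until the subunits join. It had 8.72 in caffeine and 9.94 untreated in LNCaP, and 8.71 and 9.54 in 22Rv1 in that order. Caffeine signals of both lines were nearly equal, and the mean difference was -1.03 ± 0.24 (limma, adjusted p = 0.131). MRPL12 had 9.32 in caffeine and 10.02 untreated in LNCaP, and 9.06 and 10.04 in 22Rv1 (-0.84 ± 0.21, adjusted p = 0.143). MRPL36, a short protein with a bacterial counterpart, had 11.34 in caffeine and 12.11 untreated in LNCaP, and 10.02 and 10.91 in 22Rv1 (-0.83 ± 0.29, adjusted p = 0.229). All of these had lower signals in caffeine in both lines, and their adjusted p-values did not pass.

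In the opposite direction MRPS30 had 10.69 in caffeine and 9.97 untreated in LNCaP, and 9.95 and 8.89 in 22Rv1 (0.89 ± 0.24, adjusted p = 0.151). Its other tested probe sets were below 0, with -0.03 in LNCaP and -0.09 in 22Rv1 for 222275_at and -0.15 in LNCaP and -0.33 in 22Rv1 for 227600_at. MRPS5, the counterpart of a bacterial protein that helps in reading the codon, had 10.20 and 9.59 in LNCaP and 10.06 and 9.44 in 22Rv1 (0.62 ± 0.19, adjusted p = 0.19). MRPL10 differed by 0.47 in LNCaP and 0.42 in 22Rv1 (mean 0.45 ± 0.19, adjusted p = 0.299). The stalk genes MRPL10 and MRPL12 thus differed in sign in both lines, a contrast that was not tested. Members with a difference of at least 1 between single arrays were MRPL14 in LNCaP (-1.22) and MRPS30 in 22Rv1 (1.07), which is 1 of 75 in each line, against 9.84% of the tested probe sets in LNCaP and 14.9% in 22Rv1, and against 5.55% (LNCaP) and 10.5% (22Rv1) of those in the signal range of the family.

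Degradation, the comparison meant to find mRNAs that decay is destroying, gave differences near 0. The medians were 0.14 (LNCaP) and -0.05 (22Rv1), against 0.02 (LNCaP) and -0.03 (22Rv1) over all tested probe sets, and 66 of the 75 genes were within 0.5 of 0 in both lines. The quartiles of all tested probe sets were within 0.5 of 0 as well, at -0.27 and 0.34 in LNCaP and -0.25 and 0.21 in 22Rv1. Limma called 0 of 75 and also 0% of the tested probe sets, the lowest adjusted p was 0.587, and 1 gene had an unadjusted p under 0.05, against 7.98% of the tested probe sets. That gene was MRPS5, with 10.30 in actinomycin D with caffeine and 9.89 in actinomycin D alone in LNCaP, and 10.18 and 9.56 in 22Rv1 (0.52 ± 0.19). Another tested probe set of MRPS5, 224877_s_at, gave -0.40 in LNCaP and -0.06 in 22Rv1. MRPL2 differed by 0.50 in LNCaP and 0.46 in 22Rv1 (adjusted p = 0.652), and its probe set 229884_s_at by 0.57 in LNCaP and -0.04 in 22Rv1. MRPS18B differed by 0.45 in LNCaP and 0.43 in 22Rv1 (adjusted p = 0.77), and its probe set 208907_s_at by -0.73 in LNCaP and -0.04 in 22Rv1. MRPL35 differed by -0.12 in LNCaP and -0.72 in 22Rv1 (adjusted p = 0.742).

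The lowest values of degradation came from a single array. MRPS33, particular to mitochondria, had 10.78, 11.90, 11.59 and 11.81 in LNCaP and 10.99, 11.17, 11 and 11.08 in 22Rv1. MRPS21, which has a bacterial counterpart, had 11.38, 12.36, 12.32 and 12.32 in LNCaP and 12.39, 12.42, 12.37 and 12.24 in 22Rv1. MRPL30, also with a bacterial counterpart, had 9.29, 10.23, 10.90 and 10.64 in LNCaP and 10.35, 10.24, 10.28 and 9.84 in 22Rv1. In these genes the LNCaP array of actinomycin D with caffeine was lower than any other LNCaP array, by 0.81, 0.94 and 0.94, and the 22Rv1 arrays showed no such gap. A gap of at least 0.7 on this array was found in 3 of 75 members, against 3.38% of the tested probe sets (725 of them), and on the 22Rv1 array of the same treatment in 0 of 75, against 0.82%. The same LNCaP array held the high 18S rRNA signal given above, whose part in the gap was not tested.

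The degradation values were -1.12 for MRPS33, -0.98 for MRPS21 and -0.94 for MRPL30 in LNCaP, and -0.18, -0.04 and 0.11 in 22Rv1. Other probe sets of MRPL30 gave -1.22, -0.97, -0.43 and 0.30 in LNCaP, so 3 of the 4 had the same sign. MRPS33 was the only one of the 75 genes past 1 in this comparison in LNCaP (9.77% of the tested probe sets, and 5.49% of those in the signal range of the family), and 0 were in 22Rv1 (4.73% and 1.74%).

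**Figure D4:**
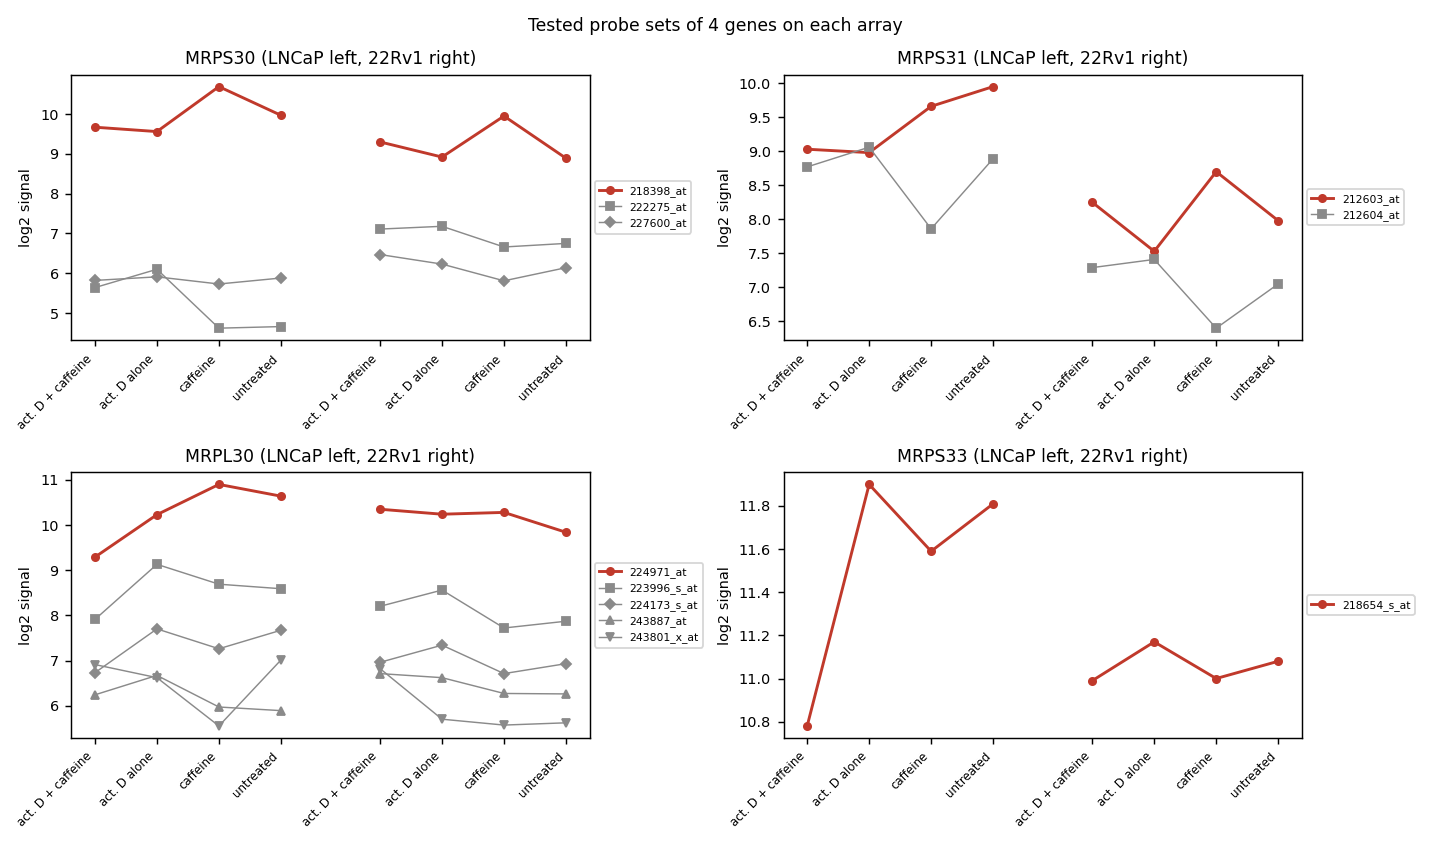
Log2 signals of every tested probe set of MRPS30, MRPS31, MRPL30 and MRPS33 on the 4 LNCaP arrays (left in each panel) and the 4 22Rv1 arrays (right), with red for the probe set that represents the gene. Lines join the arrays of a line to guide the eye. The probe sets of MRPS31 run in opposite directions between actinomycin D alone and caffeine. The red probe sets of MRPL30 and MRPS33 are lowest on the LNCaP array of actinomycin D with caffeine, but 243887_at and 243801_x_at of MRPL30 are not.

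With transcription stopped, the differences of the family were close to those of all tested probe sets. The median decay was -0.01 (LNCaP) and 0.14 (22Rv1), against -0.01 (LNCaP) and 0.09 (22Rv1), with poly-A scaling it was -1.30 over both lines for the family and for all tested probe sets alike, and 50 of the 75 genes were within 0.5 of 0 in both lines. The quartiles of all tested probe sets were within 0.5 of 0 as well, at -0.45 and 0.36 in LNCaP and -0.30 and 0.44 in 22Rv1. Their spread was narrow. The standard deviation over the 75 genes was 0.34 in LNCaP and 0.42 in 22Rv1, against 0.69 (LNCaP) and 0.65 (22Rv1) for the tested probe sets in the same signal range. The family was also narrower than that range in accumulation (0.34 against 0.51 in LNCaP, 0.45 against 0.64 in 22Rv1). In the same order, degradation gave 0.31 against 0.50 and 0.27 against 0.37. The loss with caffeine kept gave 0.41 against 0.63 and 0.30 against 0.49. In decay limma called 0 of 75, against 2.34% of the tested probe sets. The lowest adjusted p was 0.0774, and 9 genes had an unadjusted p under 0.05, against 21.7% of the tested probe sets.

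MRPS30 had the lowest mean decay, with 9.56 in actinomycin D alone and 10.69 in caffeine in LNCaP, and 8.92 and 9.95 in 22Rv1. Its mean difference was -1.08 ± 0.24 (adjusted p = 0.0774), and with a variance trend in limma the adjusted p was 0.0459. The caffeine array was the highest of each line, and in 22Rv1 the actinomycin D array equalled the untreated one to within 0.1. Its other tested probe sets were above 0, with 1.47 in LNCaP and 0.52 in 22Rv1 for 222275_at and 0.18 in LNCaP and 0.42 in 22Rv1 for 227600_at. The sign for MRPS30 was thus that of its brightest probe set alone.

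MRPS31, a small subunit protein particular to mitochondria, had 8.98 in actinomycin D alone and 9.66 in caffeine in LNCaP, and 7.53 and 8.70 in 22Rv1 (mean -0.92 ± 0.32, adjusted p = 0.183). Its probe set 212604_at gave 9.06 and 7.86 in LNCaP and 7.41 and 6.40 in 22Rv1, with differences of 1.20 and 1.01. The probe sets of MRPS31 disagreed in sign for decay but had the same sign for the line difference (1.29 and 1.61). MRPL10 had 9.45 in actinomycin D alone and 10.21 in caffeine in LNCaP, and 8.49 and 9.12 in 22Rv1 (-0.70 ± 0.19, adjusted p = 0.118). The highest mean decay values were those of MRPL52 (0.51 in LNCaP and 0.84 in 22Rv1, adjusted p = 0.155), MRPL35 (0.38 in LNCaP and 0.79 in 22Rv1, adjusted p = 0.224) and MRPL12 (0.56 in LNCaP and 0.57 in 22Rv1, adjusted p = 0.201), all of which had the opposite sign with poly-A scaling. Members past 1 in decay were MRPS30 in LNCaP (1 of 75, against 17.6% of the tested probe sets and 10.6% of those in the signal range of the family) and MRPS30 and MRPS31 in 22Rv1 (2 of 75, against 13.8% and 8.54%).

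With caffeine kept in the medium, the medians were 0.12 (LNCaP) and 0.08 (22Rv1), against -0.01 (LNCaP) and 0.05 (22Rv1) over all tested probe sets, and with poly-A scaling -0.85 over both lines, against -0.93. Limma called 0 of 75 and 0% of the tested probe sets, with a lowest adjusted p of 0.281 and 2 genes at an unadjusted p under 0.05, against 12.3% of the tested probe sets. MRPS30 was again the lowest, with -1.02 in LNCaP and -0.66 in 22Rv1 (mean -0.84 ± 0.24, adjusted p = 0.281). MRPL30 gave -1.60 in LNCaP and 0.07 in 22Rv1 (adjusted p = 0.542), and MRPS31 gave -0.63 in LNCaP and -0.45 in 22Rv1 (adjusted p = 0.543). The highest were MRPL19, a protein with a bacterial counterpart (0.07 in LNCaP and 1.04 in 22Rv1), MRPL54, particular to mitochondria (0.79 in LNCaP and 0.29 in 22Rv1), and MRPL52 (0.63 in LNCaP and 0.43 in 22Rv1), which also had the opposite sign with poly-A scaling. Members past 1 were MRPL30 and MRPS30 in LNCaP (2 of 75, against 14.4% of the tested probe sets and 8.9% of those in the signal range of the family) and MRPL19 in 22Rv1 (1 of 75, against 8.83% and 4.12%).

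**Figure D5:**
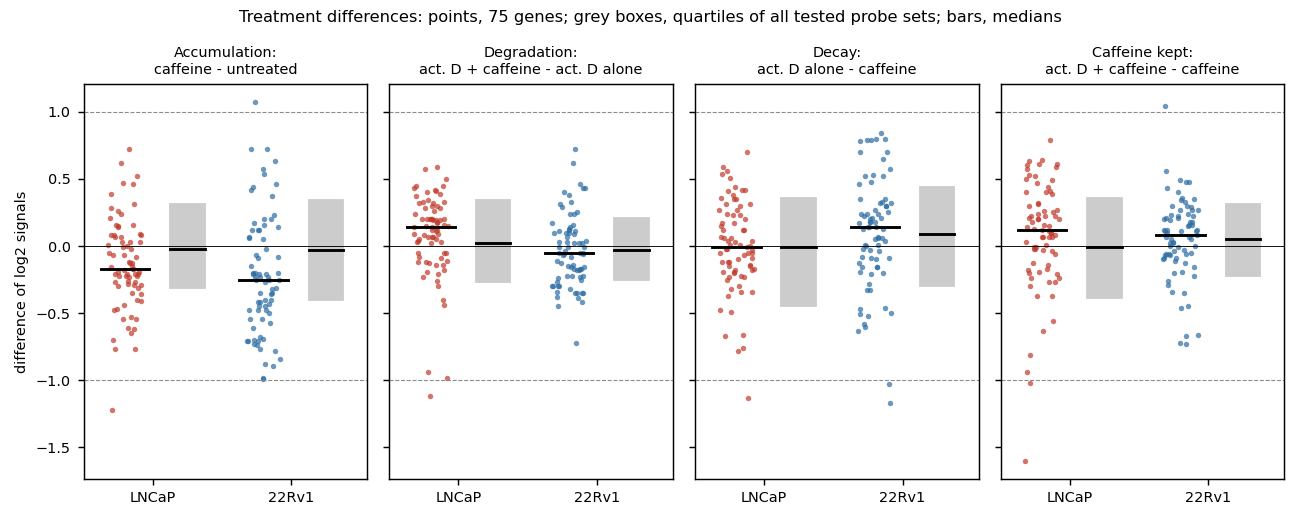
Differences of log2 signals of the 75 genes (points) in LNCaP (red, left) and 22Rv1 (blue, right) for accumulation, degradation, decay and the loss with caffeine kept. Black bars are medians, and grey boxes span the quartiles of all 21453 tested probe sets. Dashed lines mark 1 and -1; the accumulation medians are -0.17 in LNCaP and -0.25 in 22Rv1 as deposited (0.03 over both lines with poly-A scaling), and most points of the other panels lie between -0.5 and 0.5.

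Accumulation in the related lists was not tested against that of the family. The median accumulation of mitochondrial ribosome subunits with other names was -0.22 in LNCaP and -0.16 in 22Rv1, and that of translation factors was 0.19 (LNCaP) and 0.25 (22Rv1). The median of cytosolic ribosomal protein genes was 0.01 in LNCaP and 0.04 in 22Rv1, and that of respiratory chain genes -0.06 and -0.05. The list of assembly and rRNA modification genes had a median decay of -0.40 in LNCaP and -0.26 in 22Rv1, with 0 of 21 called. In decay limma called PARS2, a mitochondrial prolyl-tRNA synthetase (-2.60 ± 0.30, adjusted p = 0.0264), and MYC (-5.45 ± 0.75, adjusted p = 0.0333), and no other gene of the lists. MYC mRNA is known to turn over fast, and its decay was -4.70 in LNCaP and -6.20 in 22Rv1, far below that of any member.

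The values above depend on the quantile normalization. When the arrays were scaled to equal means of the 24 poly-A control probe sets, the median of all tested probe sets moved to 0.46 for the line difference, 0.20 for accumulation, 0.39 for degradation, -1.30 for decay and -0.93 for the loss with caffeine kept. The medians of the 75 genes became 1.15, 0.03, 0.40, -1.30 and -0.85. Relative to all tested probe sets the members were thus still higher in LNCaP and lower after caffeine, and at the same level in decay. With this scaling 57 members were called higher in LNCaP and 2 lower, where 42.7% of the tested probe sets were called higher and 15.1% lower.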

How the data were processed

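The authors deposited log2 signals of Affymetrix arrays for 8 total RNA samples, 1 for each line and treatment, made with gcRMA, which corrects for background, quantile normalizes the arrays and gives 1 value per probe set. RMA and GCRMA are the tools named in the submitters' processing notes, without versions. Depth has no counterpart on arrays, whose number limits the precision. Of the probe sets 41097 had 1 symbol, 1801 several and 11777 none. The members and gene lists were chosen with earlier results of these data known.

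The 21453 probe sets whose mean signal reached 4 were fitted in R 4.3.3 (limma 3.58.1) on line and treatment, with 3 residual and 2.93 prior degrees of freedom, and Benjamini-Hochberg adjustment over all of them. A threshold of 0.05 was used for calls. The lines served as the replicates of a treatment and the treatments as those of a line, so an interaction could not be tested. Scripts were tested on simulated data. Alternatives were a mean of at least 6, no filter, a variance trend, a robust prior, poly-A scaling, averaging a gene's probe sets, signals under 4 set to 4, no block, only the arrays compared, and each treatment left out. Other steps used python 3.11.15, numpy 2.4.6, pandas 2.3.3, scipy 1.17.1 and matplotlib 3.10.9.

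Genes named were the called members (5 highest and 5 lowest), the 3 highest and 3 lowest of each comparison and the 5 lowest in the line difference. Also named were members that differed by at least 1 in a line, and some leading members of the other lists. The rule asked for the members of each other list with the largest mean change in each comparison, and many were left out above. In accumulation these included DDX28 (-1.97), MARS2 (-2.19), NSUN4 (1.52) and MTRF1 (1.58), none of them called. The rule's part on the highest and lowest signals was not used, since signals of different probe sets cannot be compared. Further genes were named for their role after their values were seen: MRPS18A, MRPS18B, MRPS18C, MRPS12, MRPS16, MRPS25, MRPL3, MRPL45, OXA1L, TUFM, YY1 and GABPA.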

Additional observations from a re-analysis of the deposited data

How the results depend on the processing

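The count of members called higher in LNCaP was 36 to 57 over all alternatives (44 as reported), and the median difference stayed above 0. Leaving out 1 treatment gave 38 to 41 called higher, 2 lower and medians of 0.67 to 0.74. MRPS35 lost its call without any 1 of the treatments and with poly-A scaling (-0.05). The count called lower was 5 with a variance trend and 7 when the probe sets of each gene were averaged, which gave a median of 0.47 and MRPL35 0.04 (adjusted p = 0.834). That average took in every probe set of a gene, also untested ones with a mean under 4, such as 220527_at of MRPL20 (mean 2.28). The part of such probe sets in the smaller median was not tested. The median was 1.15 with poly-A scaling.

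With poly-A scaling the medians were 0.03 for accumulation, 0.40 for degradation, -1.30 for decay with 73 members called lower, and -0.85 for the loss with caffeine kept with 42 called lower. All tested probe sets moved alike (81.5% and 51.9% called lower). In decay MRPL12 became -0.78, MRPL35 -0.76 and MRPL52 -0.67, and in the loss MRPL52 -0.43, MRPL54 -0.42 and MRPL19 -0.40. With averaged probe sets MRPS30 became 0.07 and MRPS31 0.05 in decay, and in the loss MRPS30 0.09, MRPL30 0.12 and MRPS31 0.11. A variance trend called 1 member lower in decay, MRPS30. The line difference was fitted with treatment as a block, and without it 40 members were called higher and 4 lower. The labels carry no replicate numbers. With 1 array per line and treatment, a difference within a line has no replicate check.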
